A study of Mus musculus with 26 samples.

Results

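The 8 genes described here read 2 points of the cell division cycle in the mouse left ventricle. Mki67, Top2a, Cenpf, Ccna2 and Cdk1 mark or drive S phase to mitosis, and Ccnd1, Ccnd2 and Ccnd3 encode the D-type cyclins that act at cell cycle entry. They were found by their symbols among the 15249 genes of the deposited counts table, and all 8 were present in it. RNA was measured in 26 libraries of left ventricle from mice of the C57BL6 background: 6 wild type (wt), 7 overexpressing Mst-1 (MstTg), 8 with a knockout of galectin-3 (Gal3Ko) and 5 with both genotypes (Mst1Gal3). Mst-1 is a kinase of the Hippo pathway (gene Stk4), and galectin-3 is a secreted lectin (gene Lgals3). The design text calls the Mst-1 mouse a model of dilated cardiomyopathy. The labels used here give neither age nor sex, nor the promoter that drives the transgene, nor whether the libraries of a group came from separate animals, so each p-value is about the spread among these libraries, which may be technical.

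Cardiomyocytes of the adult mouse have largely left the cell cycle, and most dividing cells of the heart are fibroblasts, endothelial cells and leukocytes. D-type cyclins bind CDK4 and CDK6 and start the phosphorylation of the retinoblastoma protein, which frees E2F factors to switch on S phase genes. Cyclin A2 and CDK1 then carry cells through S phase, G2 and the entry into mitosis. Genes of G2 and mitosis are held silent in resting cells by the DREAM complex, which binds a promoter element called the CHR. Hippo kinases restrain the coactivator YAP, which promotes proliferation of cardiomyocytes in the fetal mouse heart.

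Library totals ran from 18580405 to 32663735 counts. As labelled, Stk4 was high in MstTg (22011 to 31877 counts) and Mst1Gal3 (19919 to 28364), and low in wt (454 to 692) and Gal3Ko (388 to 718). Lgals3 had 1126 to 1791 counts in MstTg and 64 to 151 in Mst1Gal3, but 22 to 64 in Gal3Ko and 19 to 49 in wt, so its counts do not check the knockout label outside the Mst-1 background. Transcripts of the mitochondrial genome took 26.8 to 38.3% of counts in wt and Gal3Ko libraries and 14.4 to 23.4% in MstTg and Mst1Gal3. Scaling to library totals in place of TMM factors, edgeR's normalization between libraries, moved the median log2 fold change of all genes from 0.02 to 0.27 in MstTg against wt and from 0.01 to 0.24 in Mst1Gal3 against Gal3Ko. The changes below are relative to the TMM scaling. In 6 libraries (1 wt, 1 MstTg, 3 Gal3Ko and 1 Mst1Gal3) the atrial genes Myl7, Myl4 and Sln together exceeded 30 CPM, the count scaled to a common library size. All 8 cardiomyocyte markers of a fixed list were measured, with summed levels of 88400 to 131600 CPM over the libraries, as the tissue label says.

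The members spanned a wide range of levels, and the D-type cyclins stood above every mitotic gene. Per kilobase of exon (all exons of a gene in GENCODE M21 merged), wt means were 17.4 CPM per kb for Ccnd2, 12.7 for Ccnd1 and 4.0 for Ccnd3. The mitotic genes followed with 1.87 CPM per kb for Cenpf, 0.891 for Mki67, 0.391 for Top2a, 0.216 for Ccna2 and 0.142 for Cdk1. In wt the ranges of the 3 cyclins did not overlap each other, whereas each mitotic gene overlapped its neighbour in this order. In MstTg Cenpf moved from place 4 to place 7, at 0.413 CPM per kb, and in Mst1Gal3 to place 6, at 0.374. The other members kept their order in all 4 groups. In bulk tissue, more cells of a type and more RNA per cell cannot be told apart.

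With Mst-1 overexpression 7 of the 8 members rose and Cenpf fell. MstTg was compared with wt by edgeR's quasi-likelihood test in a fit of all 26 libraries, adjusted over all genes by the Benjamini-Hochberg method, and every adjusted p-value below is from this test unless another tool is named. In this comparison 55.0% of all tested genes passed, 28.2% higher and 26.8% lower, so a member that passed is not unusual. In the knockout background, Mst1Gal3 against Gal3Ko, 3 members rose (Top2a, Ccnd1 and Ccnd2) and Cenpf fell, beside 26.9% of all genes higher and 25.6% lower. Under library totals 7 members passed there, with Mki67, Ccna2 and Ccnd3 added as higher. In Gal3Ko against wt 0 members passed by edgeR, DESeq2 or limma-voom, and 1, Ccnd1, had an unadjusted p below 0.05. There 0.354% of all genes passed (0.177% in each direction), and 0.138% and 0.151% lay wholly above or below wt, while all members overlapped. Between Mst1Gal3 and MstTg 1 member passed, Ccnd2, which fell, beside 4.89% of all genes (2.54% higher and 2.35% lower). In the interaction, which asks whether the Mst-1 response differed between the backgrounds, 1 member passed, Ccnd2 again, beside 0.656% of all genes (0.289% higher and 0.367% lower).

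**Figure D1:**
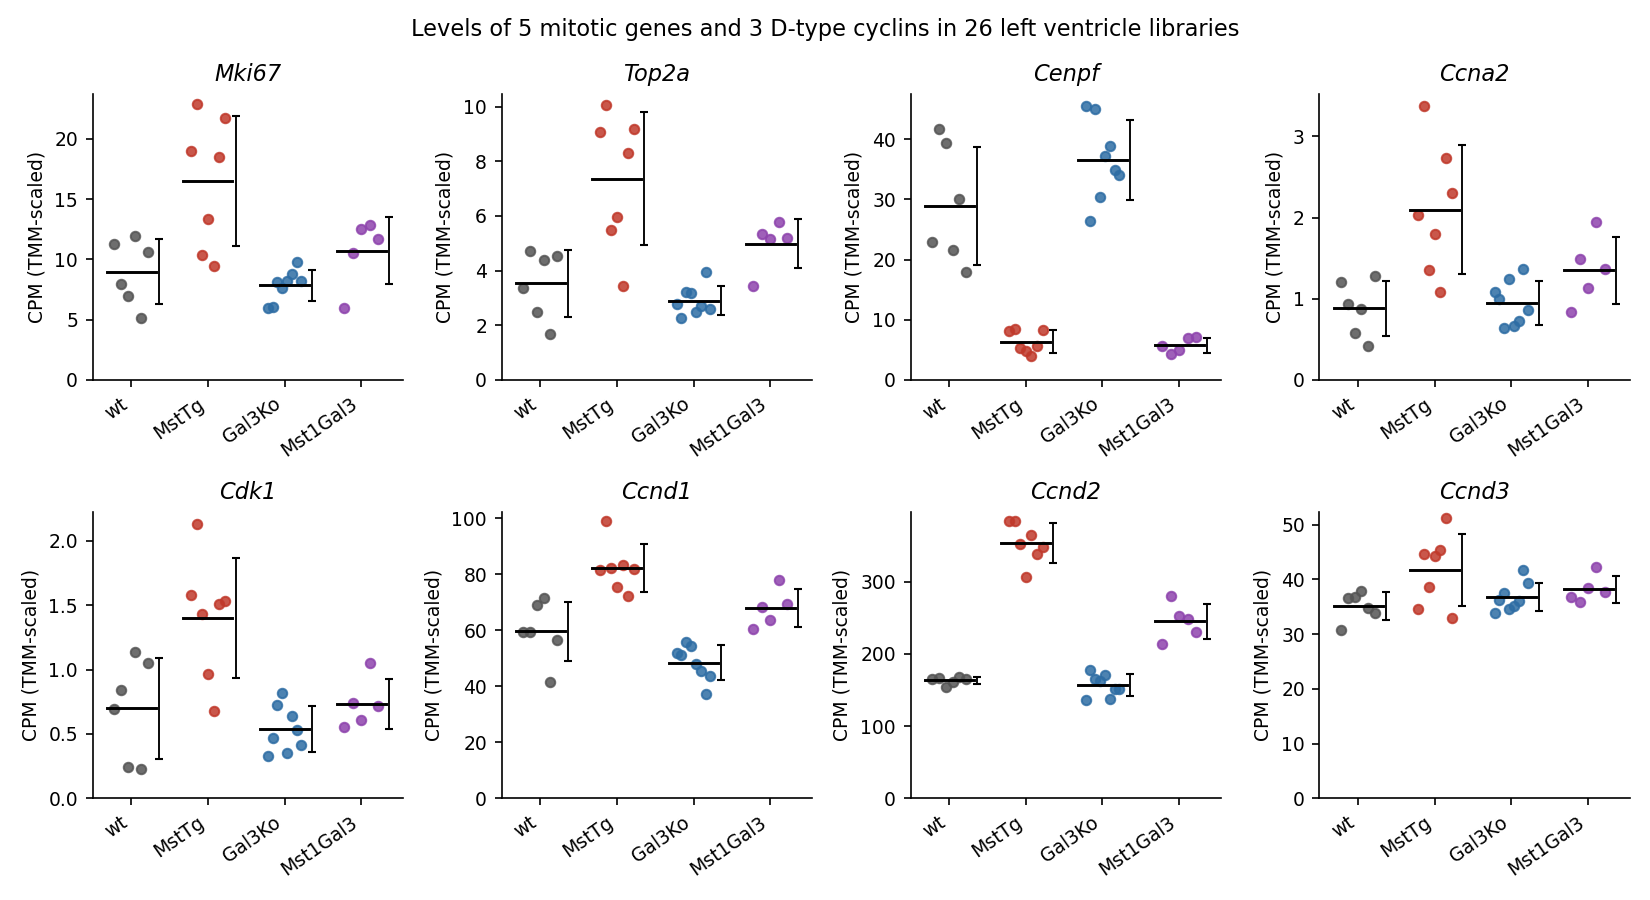
TMM-scaled CPM of the 8 members on linear axes from 0, with a point for each of the 26 libraries, a black bar at the group mean and an error bar of 1 SD beside it. Ccnd2 separates MstTg, Mst1Gal3 and the remaining groups, and Cenpf is at 3.97 to 8.47 CPM in MstTg against 17.9 to 41.7 in wt.

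Mki67, the antigen Ki-67 that coats mitotic chromosomes and is present in all cycling cells, lies on chromosome 7 from 135689784 to 135716361 (GRCm38, GENCODE M21, minus strand, as are all members but Ccnd3). It had 112 to 281 counts in wt (median 196), 269 to 652 in MstTg (421) and 91 to 221 in Gal3Ko (188.5). The Mst1Gal3 libraries had 151, 255, 331, 305 and 324 counts. In CPM, the wt libraries ran from 5.12 to 11.9 and the MstTg libraries from 9.48 to 22.9, so the groups overlapped, with MstTg replicates 3 and 5 within the wt range. From a wt mean of 8.96 CPM ± 2.69 (SD, n = 6), Mki67 rose 1.83-fold to 16.5 CPM ± 5.40 (SD, n = 7). On the log2 scale this is 0.87 ± 0.22 (SE), with an adjusted p = 0.00154. In Mst1Gal3 it was 10.7 CPM ± 2.79 (n = 5) against 7.84 CPM ± 1.29 (n = 8) in Gal3Ko, a difference that did not pass (0.45 ± 0.23, adjusted p = 0.104). It passed without Mst1Gal3 replicate 1 (0.60, adjusted p = 0.0267) and when the other groups were left out of the fit (0.46, adjusted p = 0.0204).

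Top2a encodes topoisomerase II alpha, which untangles sister DNA before chromosomes separate (chromosome 11, 98992943 to 99024189). It had 37 to 120 counts in wt (median 79), 112 to 276 in MstTg (201) and 34 to 89 in Gal3Ko (65). Mst1Gal3 libraries had 87, 130, 136, 137 and 144. Top2a rose 2.07-fold in MstTg (1.05 ± 0.22, adjusted p = 0.000177), from 3.53 CPM ± 1.24 (SD, n = 6) to 7.36 CPM ± 2.43 (n = 7). It also rose 1.71-fold in Mst1Gal3 against Gal3Ko (0.77 ± 0.23, adjusted p = 0.00532), from 2.89 CPM ± 0.529 (n = 8) to 4.98 CPM ± 0.893 (n = 5). The groups overlapped in both comparisons, through MstTg replicate 5 and Mst1Gal3 replicate 1, the lowest of their groups.

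Ccna2 (cyclin A2, chromosome 3, 36564865 to 36572150) and Cdk1 (chromosome 10, 69335146 to 69352938), a cyclin and a kinase that form a complex in G2, were the least abundant members. Ccna2 had 9 to 34 counts in wt (median 18), 35 to 81 in MstTg (52), 13 to 35 in Gal3Ko (19) and 21, 36, 30, 46 and 38 in the Mst1Gal3 libraries. Ccna2 rose 2.33-fold in MstTg (1.22 ± 0.26, adjusted p = 0.0002), and its 95% interval on the log2 scale reached from 0.68 to 1.77. In CPM the groups overlapped, with wt libraries up to 1.28 and MstTg libraries from 1.08. Exons of Ccna2 overlap those of Exosc9 on the opposite strand, which had a mean of 275.0 counts against 32.5 for Ccna2 and did not pass (0.06, adjusted p = 0.464). The strand setting of the counting is not given, so the Ccna2 counts are uncertain.

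Cdk1 had 5 to 28 counts in wt (median 16), 22 to 51 in MstTg (37), 7 to 23 in Gal3Ko (11) and 14, 18, 16, 25 and 20 in Mst1Gal3. It rose 1.97-fold in MstTg (0.98 ± 0.29, adjusted p = 0.00499), with overlap between the groups. The wt libraries were far apart: replicates 3 and 5 had 5 counts each while replicates 4 and 6 had 22 and 28. In Mst1Gal3 against Gal3Ko neither gene passed (Ccna2 0.50 ± 0.27, adjusted p = 0.126; Cdk1 0.43 ± 0.32, adjusted p = 0.279). The interval for Cdk1, -0.25 to 1.10, holds both no change and the size seen outside the knockout.

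Cenpf went the other way, and its change was the largest of any member. It encodes centromere protein F, a very large protein that binds microtubules and sits at the kinetochore in mitosis; in mice, deleting it in heart muscle is known to cause dilated cardiomyopathy. The gene lies on chromosome 1 from 189640606 to 189688086. It had 419 to 846 counts in wt (median 576.5), 129 to 248 in MstTg (140), 395 to 1099 in Gal3Ko (840) and 140, 103, 132, 164 and 199 in Mst1Gal3. Every Mst-1 overexpressing library was below every library without the transgene. In MstTg against wt alone 16.2% of all genes lay wholly below, and in Mst1Gal3 against Gal3Ko alone 14.5%. The share of genes that separate in this way over all 26 libraries was not worked out. Cenpf fell 4.56-fold in MstTg (-2.19 ± 0.21, adjusted p = 2.01e-09), from 28.9 CPM ± 9.84 (SD, n = 6) to 6.37 CPM ± 1.86 (n = 7). In the knockout background it fell 6.33-fold (-2.66 ± 0.23, adjusted p = 4.26e-10), from 36.6 CPM ± 6.65 (n = 8) to 5.77 CPM ± 1.25 (n = 5). These falls did not differ beyond the error (interaction -0.47 ± 0.30, adjusted p = 0.565, 95% interval -1.11 to 0.16).

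In wt the Cenpf libraries ran opposite to those of Mki67. The replicates with the highest Cenpf, 2, 3 and 5 (41.69, 39.36 and 30.03 CPM), had the lowest Mki67 (7.93, 6.97 and 5.12 CPM). Replicates 1, 4 and 6 had 22.9, 21.6 and 17.9 CPM of Cenpf and 11.2, 11.9 and 10.6 CPM of Mki67. In MstTg the replicates with the highest Cenpf, 1, 2 and 7, were also those with the highest Mki67. The ratio of the counts within a library, which does not depend on scaling, was 1.69 to 5.87 Cenpf counts per Mki67 count in wt and 3.57 to 7.63 in Gal3Ko. It was 0.308 to 0.513 in MstTg and 0.399 to 0.927 in Mst1Gal3, so no library with the transgene reached those without it. In contrast, Top2a counts per Mki67 count were 0.300 to 0.596 in wt and 0.364 to 0.528 in MstTg, which overlap.

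**Figure D2:**
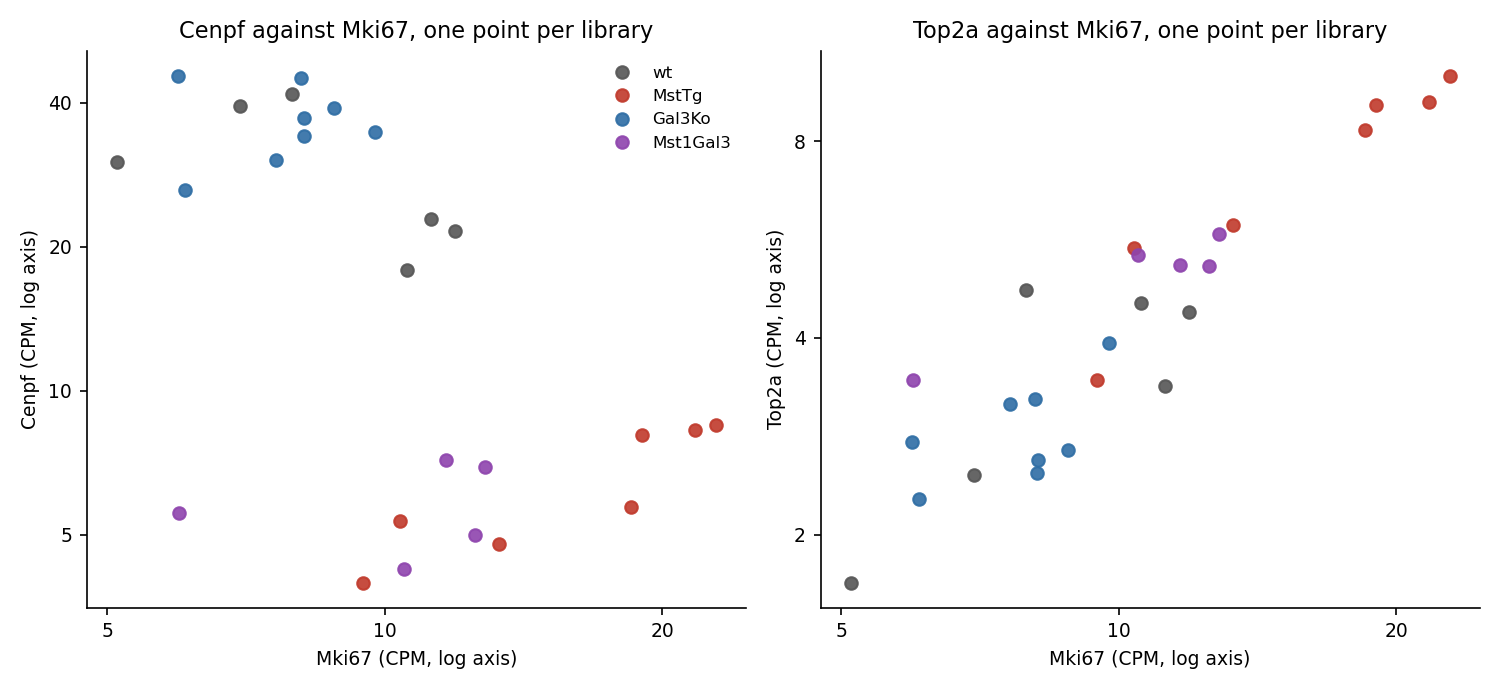
Cenpf (left) and Top2a (right) against Mki67 in CPM on log axes, with a point for each library coloured by group. Top2a follows Mki67 through all groups. Cenpf is at 3.97 to 8.47 CPM in the libraries with the Mst-1 transgene and at 17.9 to 45.5 in the others.

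Within groups the mitotic genes other than Cenpf varied together. Over the deviations of the 26 libraries from their group means in log2 CPM, Pearson's r was 0.85 between Mki67 and Top2a (Spearman's rho 0.77), 0.82 between Top2a and Cdk1 (0.79) and 0.68 between Ccna2 and Cdk1 (0.59). Cenpf had r of 0.17 with Mki67, 0.28 with Top2a, 0.03 with Ccna2 and -0.02 with Cdk1. These low values pool groups that differed, since Cenpf ran opposite to Mki67 in wt and with it in MstTg. These values describe libraries that share depth and scaling. Replicate 2 was highest and replicate 5 lowest of MstTg in all 5 mitotic members. Of Mst1Gal3, replicate 1 was lowest and replicate 4 highest in Mki67, Top2a, Ccna2 and Cdk1. The D-type cyclins followed Mki67 less, with r of 0.27 for Ccnd1, 0.19 for Ccnd2 and 0.00 for Ccnd3.

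The genes whose pattern was most like a member's differed between Cenpf and the other mitotic genes. Likeness was measured as the root mean square difference of log2 CPM over the 26 libraries, each gene centred on its mean, among genes with at least 1 CPM. The genes nearest to Mki67 were Racgap1, a regulator of cytokinesis (0.25 on the log2 scale), Top2a (0.26) and the chromokinesin gene Kif4 (0.29). Those nearest to Top2a were Mki67, the spindle gene Aspm (0.28) and Ccna2 (0.31). For Cenpf they were Crhr2, a receptor of urocortins (0.40), the sugar transporter gene Slc2a12 (0.40) and Mfsd7c (0.41), and none of the fixed cell cycle lists holds any of these. The measure takes in the differences between groups, and no gene of the mitotic lists fell as far as Cenpf in MstTg. Their absence here therefore follows from that fall. Crhr2 stood at 24.4 CPM in wt, 5.52 in MstTg, 25 in Gal3Ko and 6.04 in Mst1Gal3, high and low in the same groups as Cenpf. For Ccna2 and Cdk1 they were Top2a, Mki67 and, respectively, Kif4 and Ccna2. For Ccnd2 they were Creb3l2 (0.14), Pmp22 (0.17) and Lhfp (0.17), for Ccnd1 Anxa7 (0.16), Trim16 (0.17) and Lrp12 (0.18), and for Ccnd3 Maz (0.09), Atp13a1 (0.10) and Kdm4b (0.10). Creb3l2 stood at 51.2 CPM in wt, 106.2 in MstTg, 51.4 in Gal3Ko and 85.1 in Mst1Gal3. Crhr2 and Creb3l2 were picked by their likeness to Cenpf and Ccnd2 over these same 26 libraries. Group levels that resemble those of the members therefore follow from that choice.

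Promoter windows of 4 mitotic members are printed because these genes divide into 3 that rose and Cenpf, which fell. They come from RefSeq (GRCm38.p6), which matched 5 of the 8 members, and run from 250 bases before to 30 after the annotated start, 5′ to 3′ on the gene's strand. The windows are chr7:135716350-135716629 for Mki67, chr11:99024160-99024439 for Top2a, chr10:69352883-69353162 for Cdk1 and chr1:189688057-189688336 for Cenpf, all on the minus strand. Capitals mark the CHR letters TTTGAA and the NF-Y letters CCAAT on either strand.
Mki67: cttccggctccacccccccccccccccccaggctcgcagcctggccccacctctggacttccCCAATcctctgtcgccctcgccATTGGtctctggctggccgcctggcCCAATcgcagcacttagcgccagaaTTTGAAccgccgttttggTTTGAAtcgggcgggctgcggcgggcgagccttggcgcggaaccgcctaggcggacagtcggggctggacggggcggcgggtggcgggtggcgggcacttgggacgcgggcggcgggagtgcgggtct
Top2a: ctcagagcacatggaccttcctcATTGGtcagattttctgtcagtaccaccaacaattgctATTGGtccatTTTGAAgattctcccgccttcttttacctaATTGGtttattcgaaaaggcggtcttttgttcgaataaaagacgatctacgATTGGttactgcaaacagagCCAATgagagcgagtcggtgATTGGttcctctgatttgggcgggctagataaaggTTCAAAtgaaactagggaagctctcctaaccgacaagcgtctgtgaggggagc
Cdk1: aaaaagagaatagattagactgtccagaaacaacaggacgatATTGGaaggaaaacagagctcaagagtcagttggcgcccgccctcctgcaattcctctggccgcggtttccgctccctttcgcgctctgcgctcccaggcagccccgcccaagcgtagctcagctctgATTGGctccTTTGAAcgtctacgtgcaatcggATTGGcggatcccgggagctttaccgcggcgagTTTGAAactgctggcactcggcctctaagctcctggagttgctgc
Cenpf: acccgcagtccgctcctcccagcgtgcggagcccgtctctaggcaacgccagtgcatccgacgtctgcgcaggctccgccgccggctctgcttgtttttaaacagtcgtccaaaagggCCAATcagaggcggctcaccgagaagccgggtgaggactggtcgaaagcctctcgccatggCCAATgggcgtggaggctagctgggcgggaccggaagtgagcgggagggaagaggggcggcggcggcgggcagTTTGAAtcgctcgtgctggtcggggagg

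All 4 windows held both sets of letters, as did 6.40% of the 32851 promoter windows of the table. TTTGAA, with or without CCAAT, was in 17.2% of all windows, and CCAAT, with or without TTTGAA, in 36.1%. Mki67, Top2a and Cdk1 had 2 matches to TTTGAA each, and Cenpf had 1, at bases 3 to 8 after its start. Matches to CCAAT numbered 3 in Mki67, 6 in Top2a, 3 in Cdk1 and 2 in Cenpf. The E2F letters TTGGCGC or TTCCCGC, on either strand and held by 6.33% of all windows, matched in Mki67 and Cdk1. The TEAD letters GGAATG (13.9% of windows) and the TATA letters TATAAA (13.1%) matched in none of the 4, while a TEAD match was in 1 of the 2 windows of Ccnd3. ATTGG, which is CCAAT read on the other strand, shares letters with TTGGCGC, but 0 pairs of matches of different motifs shared a base in these windows. A match is a description of the sequence.

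**Figure D3:**
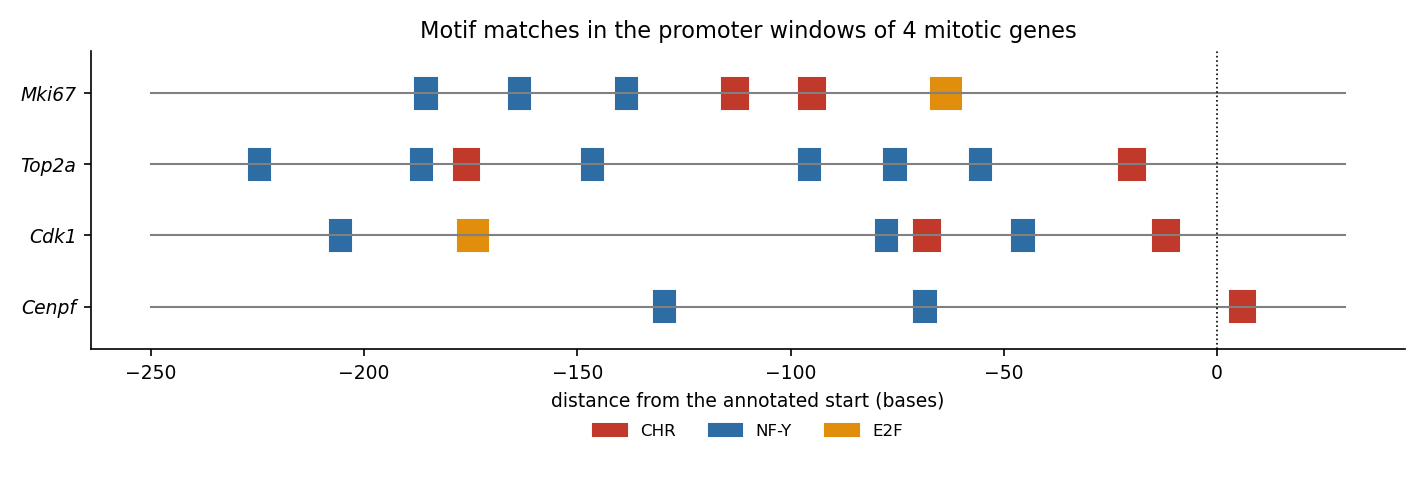
Positions of letter matches in the promoter windows of Mki67, Top2a, Cdk1 and Cenpf, in bases from the annotated start (dotted line), with CHR in red, NF-Y in blue and E2F in orange. Cenpf has a CHR match at bases 3 to 8 and no E2F match.

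Ccnd2, the cyclin D2 gene (chromosome 6, 127125162 to 127152193), was the most abundant member and the only member to pass in a comparison of galectin-3 genotypes. It had 3122 to 4389 counts in wt (median 3475.5), 8308 to 11838 in MstTg (9123), 2673 to 4563 in Gal3Ko (3405.5) and 5403, 6799, 6659, 5888 and 6424 in Mst1Gal3. In CPM the wt libraries were within 153.6 to 167.9, with an SD of 3.22% of the mean. The MstTg libraries were within 306.2 to 384.3. All MstTg libraries were above all wt libraries, as were 15.9% of all genes. Ccnd2 rose 2.17-fold in MstTg (1.12 ± 0.07, adjusted p = 1.92e-15), from 163.2 CPM ± 5.25 (SD, n = 6) to 353.9 CPM ± 27.3 (n = 7). It rose 1.56-fold in Mst1Gal3 against Gal3Ko (0.64 ± 0.07, adjusted p = 7.15e-10), from 156.9 CPM ± 15.2 (n = 8) to 245.1 CPM ± 24.7 (n = 5), where 16.5% of all genes did not overlap in this direction.

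In hearts with the transgene, Ccnd2 was 1.44-fold lower with the galectin-3 knockout than without it (-0.53 ± 0.07, adjusted p = 7.63e-06). The Mst1Gal3 libraries stood at 214.1, 280.0, 252.1, 248.2 and 231.1 CPM, all below the lowest of MstTg, 306.2 CPM. Of all genes 2.0% lay wholly below MstTg in this way and 1.31% wholly above. Without the transgene Ccnd2 was 0.06 lower in Gal3Ko than in wt (-0.06 ± 0.06, adjusted p = 0.952), and the groups overlapped. The difference between the responses, which is also the Mst-1 response inside minus outside the knockout, passed as the interaction (-0.47 ± 0.09, adjusted p = 0.0126). That call ended without the 6 libraries with high atrial genes (-0.46 ± 0.11, adjusted p = 0.0557), with the adjusted p between 0.000778 and 0.0557 over 35 alternatives. Both comparisons with MstTg share its libraries. The antisense genes 9330179D12Rik and Gm43126 overlap exons of Ccnd2. The former had a mean of 17.5 counts against 5639 for Ccnd2, and the latter was not among the genes counted. The strand setting of the counting is not given, and the part of antisense reads in the Ccnd2 counts was not tested. 9330179D12Rik rose in MstTg (0.99, adjusted p = 0.000236). It had a log2 fold change of 0.23 in Mst1Gal3 against MstTg (adjusted p = 0.597).

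Ccnd1, the cyclin D1 gene (chromosome 7, 144929931 to 144939925), is induced by growth factors in many cell types. It had 909 to 1500 counts in wt (median 1336.5), 1775 to 2703 in MstTg (2184), 767 to 1526 in Gal3Ko (1056.5) and 1524, 1657, 1679, 1852 and 1925 in Mst1Gal3. Ccnd1 rose 1.38-fold in MstTg (0.47 ± 0.10, adjusted p = 0.000196), from 59.6 CPM ± 10.7 (SD, n = 6) to 82.2 CPM ± 8.46 (n = 7). The groups did not overlap, but only narrowly, with MstTg replicate 6 at 72.33 CPM and wt replicate 4 at 71.6. Of all genes 15.9% lay wholly above wt in this way. In Mst1Gal3 Ccnd1 was above Gal3Ko (0.49 ± 0.10, adjusted p = 0.000147), at 67.9 CPM ± 6.72 (n = 5) against 48.4 CPM ± 6.18 (n = 8). The groups again did not overlap, as for 16.5% of all genes in this direction. A difference in the Mst-1 response between backgrounds was not shown (interaction 0.02 ± 0.14, adjusted p = 0.968, 95% interval -0.27 to 0.32). With the knockout Ccnd1 was lower in both backgrounds without passing, by -0.30 ± 0.10 in Gal3Ko against wt (adjusted p = 0.340) and by -0.28 ± 0.10 in Mst1Gal3 against MstTg (adjusted p = 0.131). The former passed without wt replicate 5 (-0.38, adjusted p = 0.0273), whose 41.6 CPM was the lowest of wt and which was the wt library with high atrial genes (33.05 CPM), with adjusted p from 0.0273 to 0.768 over the alternatives. The latter passed under library totals (-0.35, adjusted p = 0.0444) and with the other groups left out (-0.29, adjusted p = 0.0398). Exons of Ccnd1 overlap those of Oraov1 on the opposite strand (240.4 counts on average against 1556), which did not pass in MstTg against wt (-0.03, adjusted p = 0.762).

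Ccnd3, the cyclin D3 gene (chromosome 17, 47505051 to 47599691, plus strand), had the smallest change of the 8 members in both comparisons with the transgene. It had 667 to 901 counts in wt (median 750.5), 766 to 1474 in MstTg (1072), 542 to 970 in Gal3Ko (834.5) and 926, 869, 1016, 1004 and 1049 in Mst1Gal3. It rose 1.19-fold in MstTg (0.25 ± 0.08, adjusted p = 0.0074), from 35.1 CPM ± 2.53 (SD, n = 6) to 41.7 CPM ± 6.54 (n = 7), with MstTg libraries on both sides of the wt mean. In Mst1Gal3 against Gal3Ko it did not pass (0.05 ± 0.08, adjusted p = 0.595). Bysl, on the opposite strand, shares exon sequence with Ccnd3 and did not pass in either comparison (adjusted p = 0.725 and 0.0594).

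The mix of D-type cyclins moved toward Ccnd2 in MstTg. Per kilobase of exon, Ccnd2 made up 51.2% ± 4.37 (SD, n = 6) of the 3 cyclins in wt, 62.9% ± 1.71 (n = 7) in MstTg, 53.5% ± 2.46 (n = 8) in Gal3Ko and 58.1% ± 2.63 (n = 5) in Mst1Gal3. The MstTg libraries (60.7 to 65.8%) lay above all of wt (46.4 to 58.2%) and Gal3Ko (49.4 to 56.2%), and the Mst1Gal3 libraries (55.2 to 61.6%) overlapped all 3 groups. Ccnd3 went from 11.8% ± 0.821 in wt to 7.99% ± 1.45 in MstTg. These shares, like the ratio above, are given with no test.

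**Figure D4:**
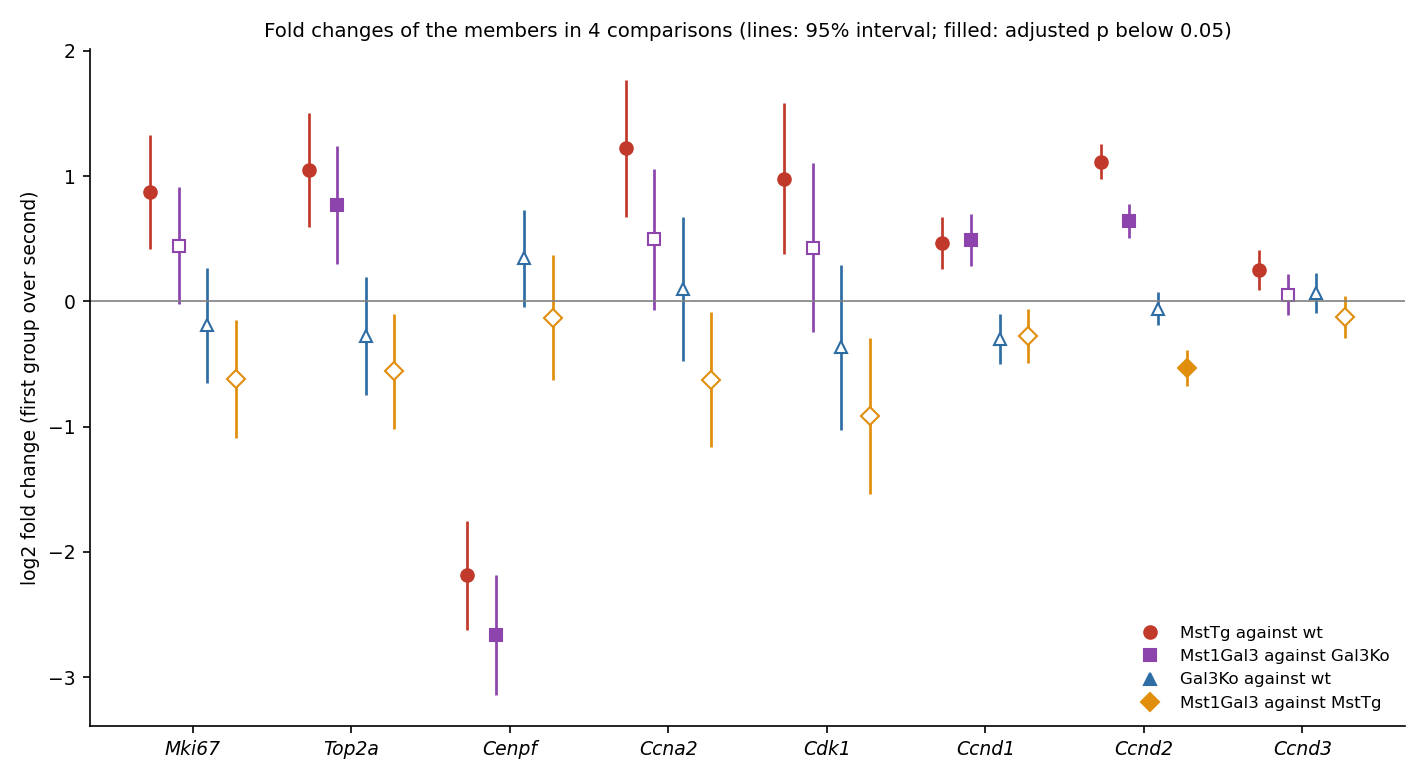
Log2 fold change of each member in 4 comparisons, with 95% intervals as lines; filled symbols have an adjusted p below 0.05 and open symbols do not. Cenpf falls in both comparisons with the transgene, and Ccnd2 is the filled symbol in Mst1Gal3 against MstTg, at -0.53.

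Mitotic genes outside the members rose widely in MstTg, where 28.2% of all genes rose and 26.8% fell. Of 32 measured genes of the spindle, cytokinesis and condensin list, 27 rose and 1, the condensin gene Ncapd2, fell, with a median log2 fold change of 0.86 beside 0.02 over all genes. Under library totals 31 rose and 0 fell, with Ncapd2 turning from -0.19 to 0.05 (adjusted p = 0.618), and it did not pass without the libraries with high atrial genes either (adjusted p = 0.0652). Among the genes that rose, Kif11, the motor that separates spindle poles, rose by 1.72 ± 0.14 (adjusted p = 7.21e-12), the midzone organiser Prc1 by 1.29 ± 0.19 (adjusted p = 4.7e-07), Iqgap3 by 1.57 ± 0.23 and Aspm by 1.08 ± 0.19. Of 18 mitotic regulators 11 rose and 2 fell (median 0.74), or 15 and 1 under library totals. They included Wee1, the kinase that restrains CDK1 (1.06 ± 0.16), the separase gene Espl1 (1.09 ± 0.18) and the checkpoint gene Bub1b (1.13 ± 0.19). The securin gene Pttg1 fell (-0.42 ± 0.07), as did Fzr1, an activator of the anaphase-promoting complex (-0.19), which was at 0.05 under library totals and did not pass there. Most of these genes were scarce, with wt means under 2 CPM for Kif11, Prc1, Iqgap3, Aspm, Espl1 and Bub1b.

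Cenpf was not the sole kinetochore gene to fall. Of 24 measured centromere and kinetochore genes 12 rose, 2 fell and 10 did not pass (median 0.23), or 15 rose and 1 fell under library totals. Zw10 (0.61 ± 0.07), Zwint (0.44 ± 0.07) and Casc5 (1.54 ± 0.25), which build the outer kinetochore and its checkpoint platform, rose. Spc24, a subunit of the NDC80 complex, fell (-1.27 ± 0.18, adjusted p = 3.99e-07), as did Ska2 (-0.40 ± 0.10, adjusted p = 0.00073), which did not pass under library totals (-0.15, adjusted p = 0.143). Spc25 (1.05 ± 0.29), the partner of Spc24 and named after its value was seen, rose. No gene of these 3 lists fell as far as Cenpf.

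Genes of cell cycle entry other than the D-type cyclins did not move as a block. Of 12 measured interphase cyclins and CDKs 2 rose and 3 fell (median -0.03). Cdk6, a partner of D-type cyclins, rose by 0.54 ± 0.11 (adjusted p = 9.45e-05), whereas the other partner Cdk4 was at 0.08 ± 0.06 (adjusted p = 0.259) and passed as higher under library totals (0.33). Ccnh (-0.64 ± 0.08) and Ccng1 (-0.66 ± 0.09) fell, and Mnat1 rose (0.22 ± 0.06); the third gene that fell was Cdk7 (-0.14), at 0.11 under library totals without passing. Cdk4 is named after its value was seen. Of 9 CDK inhibitors and pocket proteins 3 rose and 3 fell (median -0.13), or 4 and 1 under library totals. The inhibitor gene Cdkn2b, which blocks CDK4 and CDK6, rose by 1.47 ± 0.28 (adjusted p = 3.38e-05), as did Cdkn1a and Cdkn2d. The inhibitors Cdkn1c (-1.26 ± 0.17) and Cdkn1b (-0.28 ± 0.06) and the pocket protein Rbl2 (-0.37 ± 0.05) fell, of which Cdkn1b (-0.04) and Rbl2 (-0.12) did not pass under library totals.

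Of 17 E2F, DREAM and MuvB factors 5 rose and 2 fell (median 0.09), or 10 and 1 under library totals. E2f1 (1.52 ± 0.25), E2f3 (0.69 ± 0.08) and Mybl1 (1.59 ± 0.17) rose, and the E2F partner Tfdp2 fell (-0.68 ± 0.06). Foxm1 and E2f8 also rose, and Lin52 fell (-0.43) but did not pass under library totals (-0.19). Of 11 genes of D-type cyclin turnover 5 rose and 4 fell (median 0.13), or 7 and 2 under library totals. Ambra1, the adaptor that directs D-type cyclins to degradation, rose by 0.87 ± 0.05 (adjusted p = 4.6e-15), Cul7 by 0.60 ± 0.08 and Gsk3b, a kinase that marks cyclin D1 for export and degradation, by 0.31 ± 0.05. Fbxo31, a ubiquitin ligase subunit for cyclin D1, fell (-0.57 ± 0.10). Under library totals the interphase list had 5 higher and 2 lower.

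**Figure D5:**
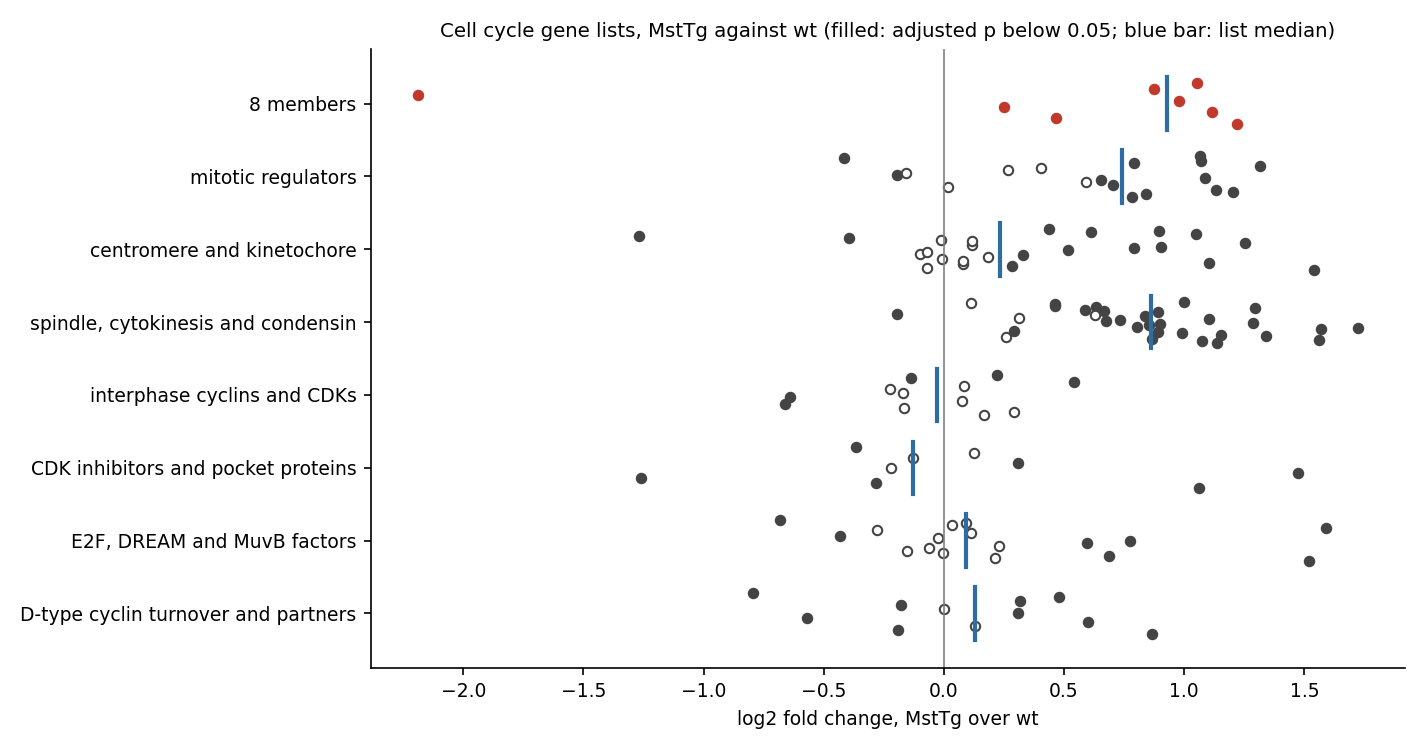
Log2 fold change in MstTg over wt for the 8 members (red) and 7 cell cycle lists, a point per gene, filled where the adjusted p is below 0.05, with a blue bar at each list's median. The spindle list has 27 of 32 genes higher and a median of 0.86, while the member at the far left, at -2.19, is Cenpf.

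The same lists were read in the knockout background. In Mst1Gal3 against Gal3Ko 14 of 32 spindle genes rose and 1 fell (median 0.51), as did 5 and 1 of 18 mitotic regulators (0.44) and 7 and 2 of 24 kinetochore genes (0.21), beside a median of 0.01 over all genes. Of all genes 26.9% rose and 25.6% fell there, so the rises among mitotic regulators and kinetochore genes were near the share of all genes. Over the 7 lists together 48.0% of the 123 genes passed, beside 52.5% of all genes. Kif11 again rose, by 1.77 ± 0.14, and Spc24 again fell (-0.94 ± 0.19). Under library totals the counts were 24 and 0, 14 and 0, and 15 and 1. Of the 123 genes of the 7 lists, 0 passed in the interaction by edgeR, DESeq2 or limma-voom and 14 (11.4%) had an unadjusted p below 0.05, beside 12.2% of all genes, so a difference between the backgrounds was not shown for any of them. The other lists had 1 higher and 5 lower (interphase), 3 and 5 (inhibitors), 5 and 3 (E2F and DREAM) and 4 and 3 (turnover), or 4 and 2, 4 and 2, 10 and 2, and 8 and 1 under library totals. Between Mst1Gal3 and MstTg 4 spindle genes fell (Tpx2, Iqgap3, Kif4 and Ncapg), as did Wee1, Bub1b, E2f1 and Rbl1, and 0 genes of the 7 lists rose. These 8 calls, all lower, are 6.5% of the 123 list genes. Of all genes 2.35% were lower and 2.54% higher, or 4.89% in either direction. DESeq2 called 9 lower and 1 higher, Fbxo31, and limma-voom 5 lower and Fbxo31 higher, without Wee1, Ncapg and Iqgap3. An unadjusted p below 0.05 was found for 43 list genes (35%) and for 18.3% of all genes. The spindle list's median there was -0.50, beside 0.02 over all genes. Mki67 (-0.62 ± 0.23, adjusted p = 0.128), Top2a (-0.56 ± 0.22, adjusted p = 0.161), Ccna2 (-0.63 ± 0.26, adjusted p = 0.175) and Cdk1 (-0.92 ± 0.30, adjusted p = 0.0722) had values in the same range without passing. MstTg replicate 5 was the lowest MstTg library for mitotic members, had the lowest mitochondrial share of all libraries (14.4%) and was the MstTg library with high atrial genes (35.4 CPM). Without it Mki67 (-0.72, adjusted p = 0.0455), Top2a (-0.68, adjusted p = 0.0276) and Cdk1 (-1.05, adjusted p = 0.0236) passed as lower.

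In Gal3Ko against wt 0 of the 123 list genes passed by edgeR, DESeq2 or limma-voom, and 4 (3.25%) had an unadjusted p below 0.05, beside 6.66% of all genes. The intervals of the members limit the size of a change. The 95% interval of Mki67 was -0.65 to 0.27, that of Cenpf -0.05 to 0.73 and that of Ccnd2 -0.19 to 0.07 on the log2 scale. Cenpf was higher in Gal3Ko than in wt by 0.34 ± 0.19 (adjusted p = 0.809), with 26.4 to 45.5 CPM against 17.9 to 41.7.

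Fibroblast and endothelial markers moved as sets with the transgene beside these results. In MstTg against wt 28.2% of all genes rose and 26.8% fell, and in Mst1Gal3 against Gal3Ko 26.9% rose and 25.6% fell. All 8 of 8 fibroblast markers rose in MstTg and in Mst1Gal3, with sums of 3824 to 4905 CPM in MstTg and 3881 to 4459 in Mst1Gal3, above those of wt (1531 to 2164) and Gal3Ko (1527 to 1921). All 8 endothelial markers fell in both comparisons, with sums of 723.7 to 838.9 CPM in MstTg and 730.9 to 802 in Mst1Gal3, below those of wt (1022 to 1248) and Gal3Ko (980.4 to 1245). Of 8 macrophage markers 2 rose (Cd68 and Cx3cr1), and the summed level was 133.3 to 244.8 CPM in wt and 171.7 to 207 in MstTg. Among 8 markers of smooth muscle and pericytes, Cnn1 and Cspg4 rose and Rgs5 and Kcnj8 fell in MstTg. The sums of these 8 were 691.9 to 927.8 CPM in wt and 570.6 to 731.9 in MstTg. The calls among macrophage markers and among smooth muscle and pericyte markers were near the shares of all genes. Of 8 cardiomyocyte markers 1 rose and 5 fell (median -0.30, range -1.20 to 0.27), where Cenpf was at -2.19. Of 8 lymphocyte and 6 neutrophil markers 1 each was measured, and neither passed. Between Mst1Gal3 and MstTg, where Ccnd2 fell, 2 cardiomyocyte markers rose, Myh6 (0.41, adjusted p = 0.00298) and Ryr2 (0.22, adjusted p = 0.0391), and 0 fibroblast, endothelial or macrophage markers passed by edgeR. The part of these cell types in the members' changes was not tested.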

How the data were processed

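Left ventricle RNA was measured in 26 libraries; groups came from the sample titles. Per the labels' protocols, ribosomal RNA was removed and directional libraries were made. Reads were handled with bcl2fastq 2.19.1.403, and STAR, featureCounts and GRCm38 are named, per the submitters' processing notes. Which annotation and strand setting were used, and how multi-mapping reads were counted, is not given in the sources used here. The authors deposited raw counts, and the lowest mean count of a gene was 10, so scarcer genes were not tested.

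Counts were tested with edgeR 4.0.16 in R 4.3.3: TMM factors, filterByExpr (which removed 0 genes), robust glmQLFit and glmQLFTest with a mean per group, two-sided, Benjamini-Hochberg adjustment over 15249 genes and a threshold of 0.05. Residual degrees of freedom were 22, and the biological coefficient of variation was 0.114 in common. Standard errors are the log2 fold change over the root of F, and intervals are 95%. CPM are counts on TMM-adjusted library sizes; log2 CPM used a prior count of 0.5. Counts of 2 replicates differed beyond sampling noise in all 74 pairs (lowest chi-square per degree of freedom 4.97).

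The members, the gene lists, the motifs and the tests were chosen with earlier results of these data known. Named genes are the members, up to 4 genes with the smallest p per list, and the 3 genes most like each member, with Stk4 and Lgals3 as a check of labels; other genes complete a short count or are marked as named after their values were seen. A fit of simulated counts for MstTg against wt recovered 47 of 50 genes changed 1.5-fold and 17 of 50 changed 1.25-fold, with 8 false calls among 15015 genes. The simulation gave every gene the common coefficient of variation, 0.114, and left the scarcest genes unchanged. Mki67 varied by 30.1% of its mean in wt and 32.8% in MstTg, so these recoveries do not carry over to genes that vary as much. Alternatives used DESeq2 and limma 3.58.1 among others.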

Additional observations from a re-analysis of the deposited data

Results flagged for a closer look

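Ccnd2 responded to Mst-1 less in the knockout background than outside it (interaction -0.47 on the log2 scale, edgeR adjusted p = 0.0126), with 163.2 CPM in wt, 353.9 in MstTg, 156.9 in Gal3Ko and 245.1 in Mst1Gal3. Of 32 sets of libraries examined (8 members in 4 groups), 2 had a library far from the rest, where chance gives about 1 in 20. Top2a in Mst1Gal3 replicate 1 was at 3.45 CPM, with the nearest library at 5.15. Ccnd1 in MstTg replicate 2 was at 99.1 CPM, with the nearest at 83.2.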

How the results depend on the processing

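All 8 members passed in MstTg against wt, in the same direction, under the alternatives run, except that a minimum mean of 1 CPM removed Cdk1 and left 7. Members called in Mst1Gal3 against MstTg went from 1 to 2 under library totals or with only the groups compared (Ccnd1 added), to 3 without the 6 libraries with high atrial genes, an alternative chosen after seeing the data (Top2a and Cdk1 added), and from 1 to 4 over single libraries left out. In Mst1Gal3 against Gal3Ko they went from 4 to 7 under library totals. In the interaction they went from 1 to 0 without the high atrial libraries. Single libraries left out gave 0 to 1 in Gal3Ko against wt. The causes of these shifts were not tested. Changes of sign occurred only in differences that never passed: Ccna2 in Gal3Ko against wt (0.10) was -0.0357 without the high atrial libraries and between -0.0464 and 0.2516 over single libraries left out, and the Ccnd1 interaction (0.02) was -0.0901 with a replicate block and between -0.0374 and 0.1064 over single libraries. Over all genes, 54 calls in Gal3Ko against wt became 89 by DESeq2 and 33 with only these groups or without the high atrial libraries; 100 calls in the interaction became 195 by DESeq2 and 51 with the replicate block. Single libraries left out gave 52 to 189 calls in the interaction, a move of over 1.5 times without MstTg replicate 1 or 5 (the highest), Gal3Ko replicate 7 or 8, or Mst1Gal3 replicate 1, 4 or 5, and 469 to 1040 in place of 746 in Mst1Gal3 against MstTg, the lowest without Mst1Gal3 replicate 1. The shares of all genes printed beside the members' counts move with these. The labels do not say whether replicate numbers shared between groups pair the libraries. The deviations of same-numbered libraries had correlations from -0.34 to 0.28 (median 0.022), beside a median of -0.005 for other pairs. Of 68 best matches 14 were with the same number, with no number expected by chance worked out, so a weak pairing could be missed. With the replicate block Ccna2 passed in Mst1Gal3 against Gal3Ko (0.63, adjusted p = 0.0321). Cdk1 and Ccna2, with as few as 5 and 9 counts in a library, have the widest intervals. No interaction fit with only the groups compared was run, since it uses all 4.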
